A study of Mus musculus with 24 samples.

Results

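The 9 microRNA precursors described here are mmu-mir-1896, mmu-mir-7000, mmu-mir-5108, mmu-mir-5119, mmu-mir-3544, mmu-mir-6345, mmu-mir-3960, mmu-mir-6990 and mmu-mir-8117, named below without the mouse prefix mmu. They were picked from a table of 1187 precursors because they had counts in most libraries of extracellular vesicles (EVs) and few or none in control cells. Small RNA was sequenced from BV2, an immortalised mouse microglial line, and from the EVs these cells released. The 8 groups, with 3 libraries each, were cells and EVs that were untreated controls or had received, for 72 h, LPS at 100 ng/mL, IL-10 at 50 ng/mL or TGF-β at 50 ng/mL. All come from this 1 line, and the labels name no separate cultures behind the 3 libraries. The p-values therefore measure the spread between libraries, which may be technical.

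A microRNA precursor is a hairpin RNA that is cut to a mature strand, which guides Argonaute proteins to messenger RNAs through its seed, bases 2 to 8. Microglia are the resident macrophages of the brain, and EVs are membrane-bound particles that cells shed and that can carry small RNA to other cells. LPS is a bacterial cell wall component that activates microglia through Toll-like receptor 4, whereas IL-10 and TGF-β are cytokines that restrain inflammatory activation. Mirtrons, to which some of the precursors below are close in layout, are hairpins whose ends are set by splicing of an intron and not by the nuclear enzyme Drosha.

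The mature sequences are shown because the deposited counts are per hairpin, so that these are the RNAs the counts can stand for. RefSeq (GRCm38.p6) holds 11 mature sequences for 8 of the 9 precursors. The seed is in capitals and each sequence runs 5′ to 3′.
miR-1896: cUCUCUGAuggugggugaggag
miR-7000-5p: aGGGGACAgguaucuggacaga
miR-7000-3p: cACCCACCugccuguccuccag
miR-5108: gUAGAGCAcuggaugguuu
miR-5119: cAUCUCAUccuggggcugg
miR-3544-5p: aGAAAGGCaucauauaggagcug
miR-3544-3p: aCUCCUGCaugacgccguuccc
miR-6345: uAGCACUGcucagggugaacu
miR-6990-5p: cCCAGGGUgagucagggcucu
miR-6990-3p: aGCCCUGCcucuuccuggcag
miR-8117: gCUCGUGUggaacagaagggg

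No 2 of these 11 sequences shared a seed. Among the 1738 mature mouse sequences miR-3062-3p has the seed of miR-7000-5p and miR-7032-5p that of miR-6990-5p, and the other 9 seeds occur once. The sequences were rich in G and C, with a median of 61.9%, and 9 of 11 were above the 52.2% median of the table. Of the hairpins, 7 of 9 were above the table's median GC content of 51.7%, from 43.8% in mir-6345 to 82.2% in mir-3960. Predicted folding energy per base did not set them apart, with a median of -0.41 kcal/mol, the same as over all 1005 hairpins. Motifs described in the literature for sorting of microRNAs into EVs were searched on the mature strand as printed. GGAG occurred in miR-3544-5p and miR-1896, that is in 2 of 11 against 13.8% of all mature sequences. CCCU occurred in miR-6990-3p alone, against 11.2%, and CGGGAG in none, against 0.518%. A match is a string of letters and not a binding site.

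The 9 hairpins lie on 8 chromosomes, and most sit inside other genes (GRCm38.p6 coordinates, GENCODE M21 genes). mir-1896 lies at chr13:21445160-21445240 on the plus strand, in an exon of the noncoding RNA 4930470G03Rik and opposite a coding exon of Zscan26, a zinc finger gene. mir-3960 lies at chr2:32712900-32712972 on the minus strand, in a UTR exon of Cdk9, a kinase of transcription elongation. mir-6990 lies at chr19:6914196-6914286 on the minus strand within Esrra, which encodes a nuclear receptor, and falls in an exon of one of its noncoding transcripts. mir-7000 lies at chr2:92387384-92387446 on the minus strand in an intron of Mapk8ip1, a scaffold of JNK signalling. The 3′ ends of the mir-7000 and mir-6990 hairpins are 0 bases from the next exon, whereas their 5′ ends are 107 and 3770 bases from the exon before. That is the layout of a hairpin with 1 end at a splice site.

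The other 5 are intronic or lie opposite another transcript. mir-6345 lies at chr1:93352158-93352285, in an intron of the phosphatase subunit gene Ppp1r7. mir-5119 lies at chr11:98262606-98262662, in an intron of Cdk12, a kinase of RNA polymerase II. mir-8117 lies at chr5:50252762-50252868, in an intron of the pseudogene Gm7205. mir-5108 lies at chr10:61774737-61774821, opposite an intron of the histone variant gene H2afy2. These 4 are on the plus strand. mir-3544 lies at chr12:109585813-109585873 on the minus strand, opposite mir-337, a precursor of the imprinted Dlk1-Dio3 region. By this annotation 3 of the 9 were in an exon of another gene, 5 in an intron and 1 in neither, against 28.3%, 49.9% and 21.9% of 1005 mouse hairpins.

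The mir-3544 hairpin is the exact reverse complement of part of the mir-337 hairpin, so the strand of a read decides between them. The mir-337 arms are shown for that reason, with the bases that pair in 1 unbroken run with a mir-3544 arm in capitals.
miR-337-5p: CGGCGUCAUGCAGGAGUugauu
miR-337-3p: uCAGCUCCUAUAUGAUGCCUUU
The run is 17 bases long between miR-337-5p and miR-3544-3p, and 21 bases long between miR-337-3p and miR-3544-5p. mir-337 itself had 3 counts in EVs and 1 in cells, against 148 and 0 for mir-3544. Whether the deposited counting used the strand is not given in the sources used here, so the 2 precursors are uncertain as a pair. The same holds for mir-1896, whose mature sequence also matches the 4930470G03Rik transcript and, on the other strand, Zscan26. Both miR-6990 arms match an Esrra transcript on the same strand.

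EV libraries were shallow, with totals of 15071 to 28727 counts, and cell libraries held 185400 to 409969. A floor of 3 counts is 0.0104% to 0.0199% of an EV library and 0.000732% to 0.00162% of a cell library. Intervals and floors here cover counting error only. In EVs 49.9% to 79.5% of counts belonged to a single precursor, mir-6236, which is among the precursors whose sequences overlap structural RNA. Its share in cells was 0.574% to 1.63%. All 7 microglial and macrophage markers had counts in every cell group. In EVs counts were found for 4 of the 7 in the control and the TGF-β group, 3 in the IL-10 group and 5 in the LPS group. mir-223 and mir-511 were at 0 in all EV groups. In control cells they had 267 and 81 of 988499 pooled counts. Control EVs held 49943 counts in all, of which 37200 were mir-6236. Whether this depth alone gives a 0 was not tested. The liver marker mir-122, looked at for serum RNA, was at 0 in all EV libraries, with the same limit of depth. Of the 4 red cell markers, mir-144 had 11 and mir-486a 12 pooled counts in control EVs and 0 in control cells. mir-451a and mir-486b were at 0 in both. Whether serum RNA was present was not tested.

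In EVs the 9 precursors together held 3413 of 224835 counts, and in cells 23 of 3576195. Every EV library held 52 to 410 such counts and every cell library 1 to 4. Since the precursors were chosen for this contrast, its size is a description and no test was made. Of all 667 precursors with a count in control EVs or control cells, 5.40% had library shares that were all higher in control EVs than in control cells, a background that includes these 9. mir-6345, mir-3544, mir-5119, mir-6990 and mir-8117 had 0 counts in all 12 cell libraries. mir-7000 had 4 counts in cells, all after IL-10 or TGF-β, mir-5108 had 4, mir-1896 had 6 and mir-3960 had 9. Of the 23 counts in cells 3 fell in the 3 control libraries and 20 in the 9 treated ones. Low counts in control cells, but not in treated cells, were part of the choice, which by itself favours such a difference.

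Ratios of pooled shares, EVs over cells, differ in what they can show. For mir-1896 in controls the ratio was 12548 (95% counting interval 2244 to 496410), resting on 634 counts in EVs and 1 in cells. For mir-5108 it was 1663 (290.4 to 66440), and for mir-3960 it was 673 (113 to 27352). Where control cells were at 0, the 3 control cell libraries together were given 3 counts, which makes the ratio a lower bound for the cell count alone. The EV count enters without its counting error, so these bounds are not the lower ends of intervals like those above. With EV counts as observed, mir-7000 was at least 429-fold higher in control EVs and mir-5119 at least 389-fold. The bound was 297-fold for mir-3544, 270-fold for mir-6345, 165-fold for mir-8117 and 139-fold for mir-6990. For the 9 together the ratio was 6650 (2269 to 32302) in controls and 514 (248 to 1287) after LPS. With IL-10 it was 3636 (1552 to 11227) and with TGF-β 2663 (1347 to 6184). Control cells were chosen to be low and treated cells were not, which favours a higher ratio in controls, so the 4 ratios are not compared. The intervals leave out the spread between libraries.

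**Figure D1:**
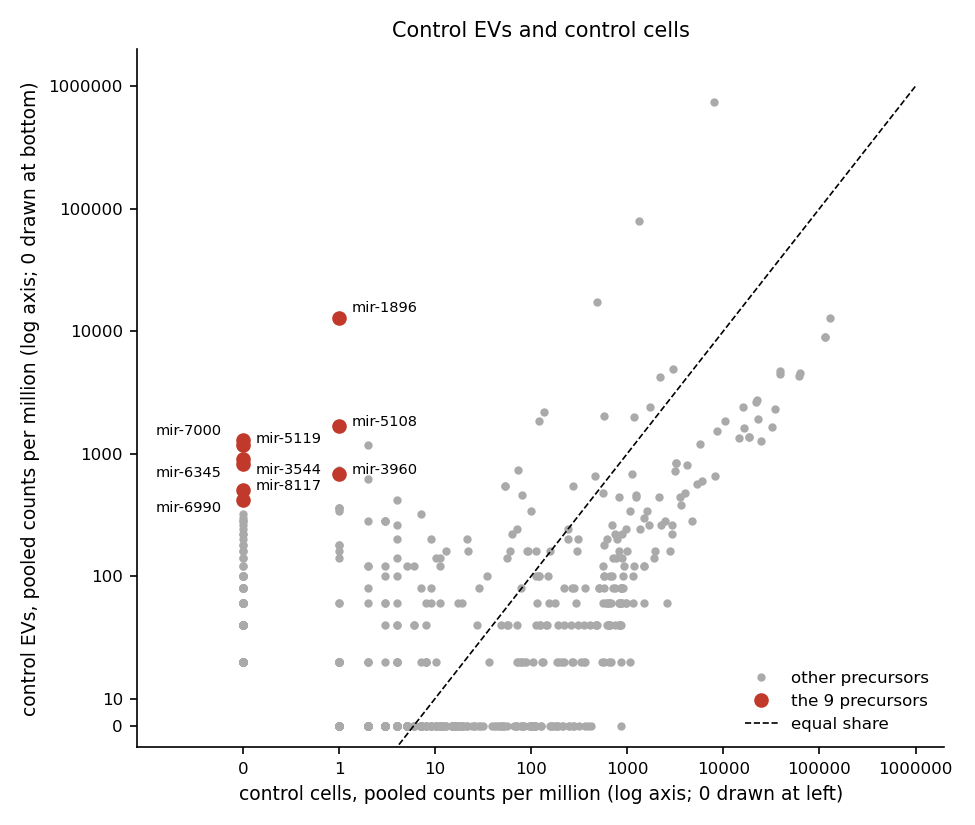
Pooled CPM (counts per 1000000 library counts) in control EVs (vertical, log axis) against control cells (horizontal, log axis), 1 point per precursor, with a count of 0 drawn at the edge and the dashed line at equal shares. The 9 chosen precursors (red) sit at 0 or 1 pooled count in control cells, and mir-1896 lies above the others.

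The choice has no sharp edge. By counts in at least 7 of 12 EV libraries and at most 3 counts in the 3 control cell libraries, 22 precursors would qualify, of which these are 9. The least abundant chosen, mir-8117, had 60 counts in EVs and mir-6990 had 64. Just outside were mir-203 with 381 counts in EVs and 2 in control cells, mir-184 with 119 and 2, mir-1a-1 with 97 and 1, and mir-708 with 41 and 0. The other 9 had 9 to 32 counts in EVs.

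mir-1896 dominated the group, with 65.0% of its EV counts and rank 8 among all precursors in EVs. Per 100 hairpin bases its level in control EVs was 15782 ± 4879 CPM (counts per 1000000 library counts; mean ± SD, n = 3), and its libraries did not overlap with those of the next. A middle tier followed, in which neighbours overlapped: mir-5119 at 2080 ± 627, mir-7000 at 2067 ± 1056, mir-5108 at 2010 ± 858 and mir-3544 at 1479 ± 265 CPM per 100 bases. On this scale the libraries of mir-3544 lay above those of mir-3960, at 927 ± 148. mir-6345 at 651 ± 204, mir-8117 at 468 ± 61.0 and mir-6990 at 456 ± 277 closed the order and overlapped with their neighbours. The order below mir-1896 depends on the division by hairpin length. In undivided CPM mir-5108 came second in control EVs, at 1709 ± 730. mir-3544, at 749 to 1071 CPM, then overlapped with mir-3960, at 562 to 776, and mir-6345 had a higher mean than mir-3960. mir-1896 was also first after IL-10 and TGF-β, without overlap with the second, and first after LPS, where it overlapped with mir-7000.

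**Figure D2:**
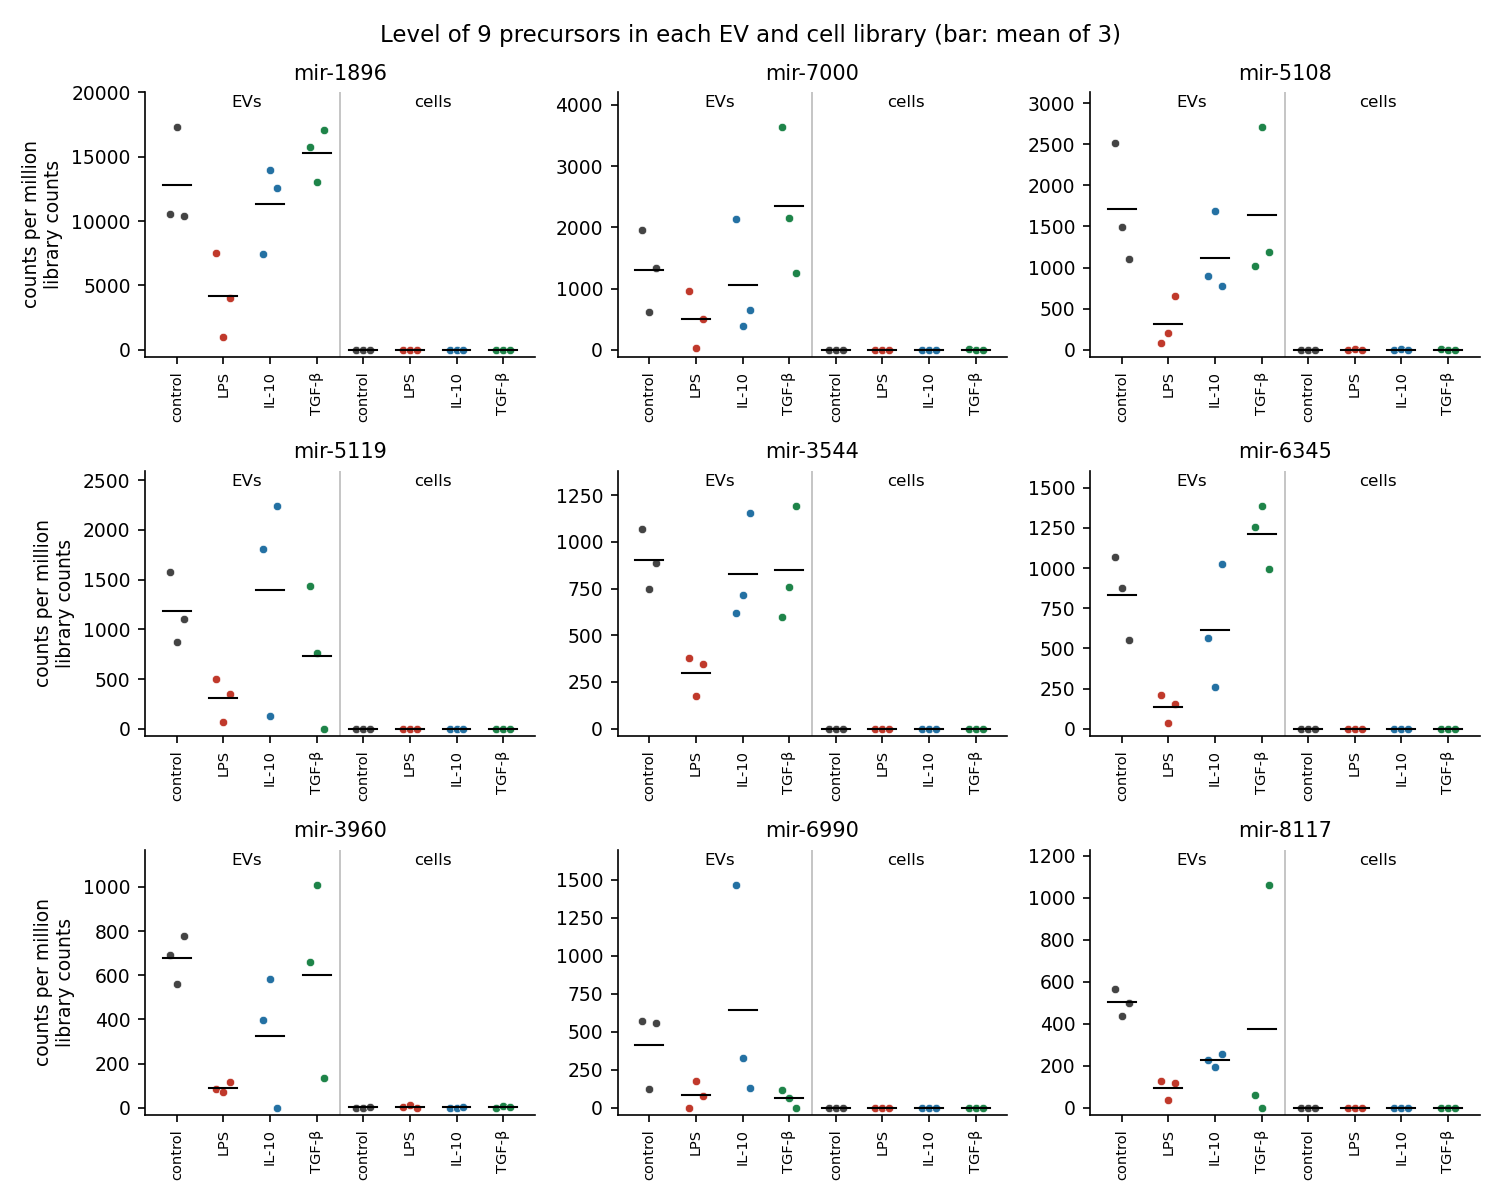
CPM (linear axis, a separate scale for each precursor) of the 9 precursors in the 12 EV and 12 cell libraries, 1 point per library, with bars at the mean of 3. Cell libraries lie at or near 0 throughout, and LPS EV libraries lie low for most precursors.

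The 9 precursors together held less of the EV libraries after LPS. Their summed share of all counts was 2.06%, 2.31% and 1.72% in control EVs, and 0.986%, 0.181% and 0.634% after LPS, so that the groups did not overlap. Shares are relative, and fewer vesicles of a kind and less RNA per vesicle cannot be told apart. After IL-10 it was 1.56%, 1.82% and 1.88%, and after TGF-β 2.45%, 2.19% and 2.30%. The means were 2.03 ± 0.294%, 0.600 ± 0.403%, 1.75 ± 0.172% and 2.31 ± 0.131% (SD, n = 3) in control, LPS, IL-10 and TGF-β EVs. On average the LPS libraries also held less mir-6236, at 57.2 ± 7.82% against 74.5 ± 1.17% in controls. They held more let-7, at 10.4 ± 2.44% against 4.36 ± 0.789%. IL-10 EV library 1 lay within the LPS range for both, at 61.2% mir-6236 and 9.33% let-7, and the 9 precursors held 1.56% of it. For the LPS and TGF-β comparisons it was therefore also left out as an alternative. Per 1000 mir-6236 counts there were 27.2 ± 3.62 counts of the 9 precursors in control EVs, and 10.3 ± 6.27 after LPS. With IL-10 there were 24.1 ± 1.26 and with TGF-β 31.5 ± 0.794. The 5 muscle markers held 0.0720% to 0.151% of control and 0.0193% to 0.0244% of LPS libraries, and 3 of 5 had a count in each of these groups. The 8 neuronal markers held 0.0437% to 0.492% of control and 0% to 0.0278% of LPS libraries, with 8 and 7 detected. These are not 8 independent markers. In control EVs mir-124-1, mir-124-2 and mir-124-3 had 18 counts each, and mir-9-1, mir-9-2 and mir-9-3 had 14 each, which may be shared reads. The 4 red cell markers held at most 0.127% and 0.00835%, with 2 detected in each, and the 6 epithelial ones at most 0.0125% and 0.0139%, with 1 and 3 detected. The 7 microglial markers held 0.168% to 0.216% of control and 0.388% to 0.843% of LPS EV libraries, with mir-155 also at 0 in controls. LPS libraries had the highest EV totals, 23943 to 28727 against 15869 to 18047 in controls. The part of the let-7, mir-6236 and marker shares and of depth in the results below was not tested.

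**Figure D3:**
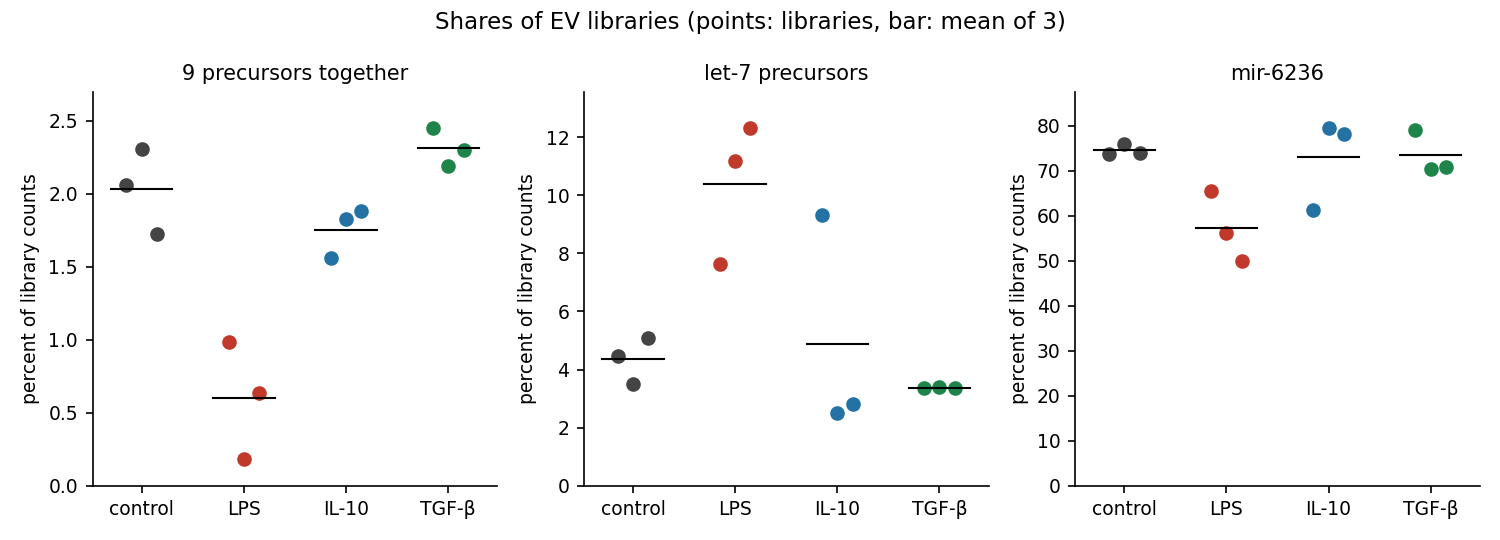
Percent of all counts in each of the 12 EV libraries (points; bars at the mean of 3) held by the 9 precursors together, by let-7 precursors and by mir-6236, each axis from 0. LPS libraries, at 0.181% to 0.986%, lie below all others for the 9 precursors.

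Treatments were compared with control by edgeR's quasi-likelihood F test in 1 fit of the 12 EV libraries, and an adjusted p under 0.05 was called. The stated rule for choosing the precursors used counts in EV libraries and in control cells and names no treatment contrast, but the choice was made with earlier results of these data known. Of the 12 EV libraries behind that rule, 9 were not LPS libraries. Of the 9 precursors, 7 passed the filter on low counts, and mir-6990 and mir-8117 did not. The filter asks for its minimum of 10, scaled to depth, in as many libraries as a group holds. In LPS libraries mir-6345, mir-3544 and mir-3960 had at most 5, 9 and 3 counts. mir-5119, mir-5108 and mir-7000 were also below the minimum in at least 1 LPS library, at 2, 2 and 1 counts. Only mir-1896, with 29 to 180 counts, was above it in all LPS libraries. All the others tested needed other groups to pass, and such a selection favours falls over rises after LPS. After LPS 5 of the 7 fell and none rose. The background over the 71 precursors tested, these included, was 14.1% that fell and 4.23% that rose. The 5 were mir-1896, mir-5108, mir-6345, mir-3544 and mir-3960. The 7 had a median log2 fold change of -2.90, against 0.02 over all 71. Apart from the test, library shares of 7 of the 9 were all lower after LPS than in any control library, the exceptions being mir-7000 and mir-6990. Among the 7 tested that was true of 6, against a background of 16.9% that includes them. None had shares that were all higher, against a background of 42.3%.

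mir-1896, the most abundant, had 168, 278 and 188 counts in the control libraries and 180, 29 and 104 after LPS. In CPM that was 12783 ± 3952 and 4183 ± 3257 (SD, n = 3), and the groups did not overlap. Its log2 fold change was -2.63 ± 0.73 (SE) with an edgeR adjusted p of 0.0227. CPM here rests on library totals and the fold changes on TMM factors, which were 1.52 to 2.28 in LPS EV libraries. With library totals the log2 fold change of mir-1896 was -1.60. That difference of scale applies to all the precursors tested. mir-5108 had 40, 24 and 20 counts in controls and 2, 6 and 17 after LPS, or 1709 ± 730 and 317 ± 302 CPM. All LPS libraries were below all controls, and the log2 fold change was -3.54 ± 0.73 (edgeR adjusted p = 0.0103). mir-6345, from the Ppp1r7 intron, had 17, 14 and 10 counts in controls and 5, 1 and 4 after LPS, or 833 ± 261 and 133 ± 89.0 CPM. It fell by 3.61 ± 0.85 on the log2 scale (edgeR adjusted p = 0.0125), again with no overlap between groups.

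mir-3544, the antisense partner of mir-337, had 17, 12 and 16 counts in controls and 9, 5 and 9 after LPS. That was 902 ± 162 and 299 ± 109 CPM without overlap, and a log2 fold change of -2.58 ± 0.69 (edgeR adjusted p = 0.0210). mir-3960, in osteoblasts a partner of mir-2861, had 11, 9 and 14 counts in controls and 2, 2 and 3 after LPS, or 677 ± 108 and 89.7 ± 23.8 CPM. Its log2 fold change of -3.83 ± 1.02 was the largest in size of the 7 and rests on 7 counts over the LPS libraries (edgeR adjusted p = 0.0210).

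The other 4 did not pass the test or the filter before it. mir-7000 had 31, 10 and 24 counts in controls and 23, 1 and 13 after LPS, and its groups overlapped. Its log2 fold change was -2.28 ± 0.87 (edgeR adjusted p = 0.0953). mir-5119 had 25, 14 and 20 counts in controls and 12, 2 and 9 after LPS, with a log2 fold change of -2.90 ± 1.21 (edgeR adjusted p = 0.136), although its library shares did not overlap. mir-8117 had 9, 7 and 9 counts in controls and 3, 1 and 3 after LPS. mir-6990 had 9, 2 and 10 against 0, 5 and 2. Neither passed the filter. With no filter their log2 fold changes were -3.07 ± 1.25 for mir-8117 (edgeR adjusted p = 0.291, unadjusted 0.0140) and -2.76 ± 1.29 for mir-6990 (adjusted 0.394, unadjusted 0.0324).

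These calls depend on the scaling and on single libraries. With library totals in place of TMM factors the median of all tested precursors moved up by 1.08 on the log2 scale, and 0 of the 7 were called by edgeR (5 at an unadjusted p under 0.05), with log2 fold changes of -2.82 to -1.38. With mir-6236 and mir-6240 removed 3 were called, with no filter 2 of 9, and with a mean of at least 50 counts mir-1896, the only one left. With control library 1 or LPS library 2 left out 0 were called by edgeR (5 and 6 at an unadjusted p under 0.05), and with control library 2 or LPS library 3 left out 1. All 92 fold changes of the 7 over these and the other alternatives were below 0, from -4.36 to -1.38.

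LPS was also compared with the mean of the 2 cytokine groups in the same fit. This comparison was added after the data were seen and shares the LPS libraries with the one above. In it 6 of the 7 fell, against a background of 23.9% of 71, these included, and the limit set by the filter holds here too. mir-6345 fell by 3.93 ± 0.81 on the log2 scale (edgeR adjusted p = 0.00326) and mir-5108 fell by 3.45 ± 0.69 (0.00320). The values were -2.77 ± 0.65 for mir-3544 (0.00524), -2.92 ± 0.70 for mir-1896 (0.00544), -3.38 ± 0.95 for mir-3960 (0.0141) and -2.71 ± 0.82 for mir-7000 (0.0208). mir-5119, at -2.97 ± 1.13, had an edgeR adjusted p of 0.0594. With library totals 3 were called, and the calls over all 71 went from 8 higher and 17 lower to 24 higher and 7 lower. With no filter 3 of 9 were called, with a mean of at least 50 counts 1 of 1, and without LPS library 3 only 3. mir-6345 and mir-5108 were called in all 15 alternatives.

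No change of the 9 was called after either cytokine. After IL-10 0 of the 7 were called, as were 0% of all 71, of which 5 had an unadjusted p under 0.05 in edgeR's test and 0 an adjusted one in DESeq2's. Their log2 fold changes ran from -1.001 ± 0.94 in mir-3960 to 0.46 ± 1.12 in mir-5119, with a median of -0.16 against -0.03 over all tested. After TGF-β 0 of the 7 were called, against a background of 4.23%, which is 3 precursors, all copies of mir-692. Values ran from -0.33 ± 1.14 in mir-5119 to 1.23 ± 0.83 in mir-7000, with a median of 0.18 against -0.18. None of the 7 had an unadjusted p under 0.05 in either comparison. These SEs of 0.66 to 1.14 do not exclude a change of the size of 2-fold. The IL-10, TGF-β and LPS comparisons share the 3 control libraries.

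Single libraries stood out within the cytokine groups. mir-5119 had 32, 2 and 35 counts after IL-10 and 24, 12 and 0 after TGF-β, so that its highest and its lowest EV library were both in the cytokine groups. mir-6990 had 26, 5 and 2 counts after IL-10 and 2, 1 and 0 after TGF-β. mir-8117 had 4, 3 and 4 counts after IL-10, and 1, 0 and 16 after TGF-β. mir-3960 had 7, 9 and 0 counts after IL-10 and 11, 16 and 2 after TGF-β. mir-7000 had 38, 6 and 10 after IL-10 and 61, 34 and 19 after TGF-β, the highest mean of the 4 groups at 2351 ± 1206 CPM. The more even ones were mir-1896, with 132, 215 and 196 after IL-10 and 263, 207 and 258 after TGF-β, and mir-3544, with 11, 11 and 18 and then 10, 12 and 18. mir-6345 had 10, 4 and 16 counts and then 21, 22 and 15, and mir-5108 16, 26 and 12 and then 17, 43 and 18.

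**Figure D4:**
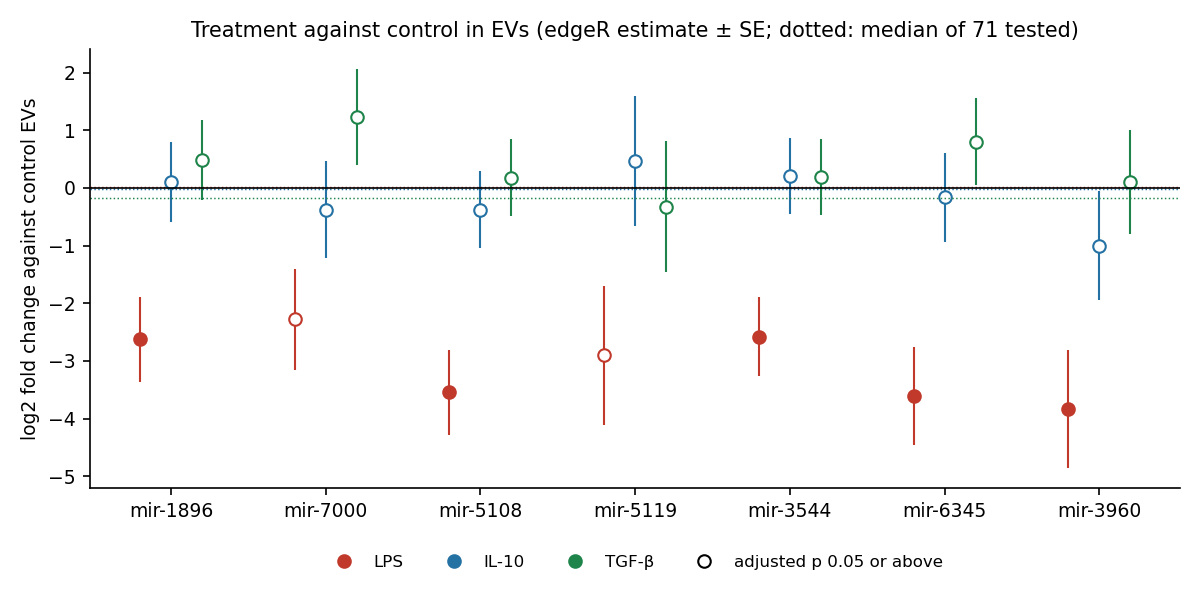
Log2 fold change against control EVs (edgeR estimate, bars ± SE, n = 3 libraries a group) for the 7 tested precursors in the 3 treatments, with filled points where the adjusted p was under 0.05 and dotted lines at the median of all 71 tested. LPS points lie from -3.83 to -2.28, and 5 of 7 are filled. No IL-10 or TGF-β point is filled.

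In cells none of the 9 passed the filter in any of the 3 comparisons, in which 259 precursors were tested and 32.0% were called with LPS, 7.72% with IL-10 and 6.56% with TGF-β. Summed over the 3 libraries of a group they had 3 counts in control cells, 5 and 8 with IL-10 and TGF-β, and 7 with LPS. Only the low count in control cells was part of the choice. Cell totals after LPS were the lowest, at 625553 counts for the group against 988499 in controls. A fall in LPS cells could not be detected at this depth. Thinned once at random to 15071 counts, the smallest EV total, the 12 cell libraries held 1 such count in all, in control library 1.

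Correlations among the 9 across EV libraries were mostly positive with the LPS libraries included and centred near 0 without them. Over 12 EV libraries the 36 pairwise correlations of log2 CPM had a median Pearson r of 0.44 and 34 were above 0. Below 0 were mir-6990 with mir-1896, at -0.05, and mir-5119 with mir-8117, at -0.04. The closest pair was mir-6345 and mir-1896, with an r of 0.88. Over the 9 libraries without LPS the median was 0.02 and 19 of 36 were above 0, and r for that pair was 0.27. These libraries share their depth range and the dominance of mir-6236, and no background over other pairs was computed, so the values are descriptions.

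Among 157 other precursors with counts in at least 7 EV libraries, the one most like the summed 9 was mir-6240, with a Pearson r of 0.88 over 12 EV libraries and 0.29 over the 9 without LPS. mir-203 followed at 0.81 and mir-6236 at 0.77, or 0.31 and 0.44 without LPS. mir-6240 was also nearest to mir-1896, mir-3544, mir-6345 and mir-5108, with r of 0.86, 0.87, 0.83 and 0.77. mir-7000 was nearest to mir-203, at 0.86 and at 0.66 without LPS. mir-3960 was nearest to mir-3963 at 0.73, mir-5119 to mir-3100 at 0.70, mir-6990 to mir-6949 at 0.69 and mir-8117 to mir-7648 at 0.78. mir-6240 itself had a log2 fold change of -2.05 ± 0.48 after LPS (edgeR adjusted p = 0.0125), and mir-6236 one of -1.41 ± 0.49 (0.0710), both smaller in size than those of the 7 precursors, a difference that was not tested.

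Precursors with neighbouring catalogue numbers behaved in mixed ways after LPS. Of the 34 numbered mir-5097 to mir-5136, which include mir-5108 and mir-5119, 6 were tested. Of these mir-5108, mir-5100 and mir-5099 fell and mir-5126 rose, the latter by 2.61 ± 0.80 on the log2 scale (edgeR adjusted p = 0.0386). Of the 203 numbered mir-6896 to mir-7094, which include mir-6990 and mir-7000, 91 had a count in EVs and only mir-7000 was tested. Of 5 listed precursors that overlap structural RNA, mir-6240 fell and mir-2137 rose, by 2.56 ± 0.43 (edgeR adjusted p = 0.00386). mir-2861, whose hairpin is 11 bases from that of mir-3960, had 4 counts in 3 EV libraries and 2 in 1 cell library, against 86 and 9 for mir-3960. The other precursors that fell after LPS were mir-203 and mir-1a-1, both just outside the choice of the 9.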

How the data were processed

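The deposited values are raw counts per microRNA precursor, whole numbers that the authors did not normalise, as the values themselves show. RNA, per the labels, was isolated with miRNeasy columns, made into libraries with the SMARTer smRNA-seq kit (18 PCR cycles) and read on a HiSeq X. For the aligner, annotation, build and strand setting: not given in the sources used here. DESeq2 is named in the submitters' processing notes. Of the 8 deposited tables, 2 repeat others, which leaves 6. Column headers give the group but not the sample, so library numbers are those of the headers and pair nothing.

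edgeR 4.0.16 (R 4.3.3) was fitted per compartment to 12 libraries, with TMM factors, filterByExpr with a minimum count of 10, a two-sided quasi-likelihood F test (8 residual degrees of freedom) and Benjamini-Hochberg adjustment over all precursors tested. 7 comparisons were made, 1 of them added. Shares use library totals. Intervals are exact binomial ones at 95%. Alternatives were DESeq2's size factors, library totals, other filters, the Wald test of DESeq2 1.42.0, mir-6236 and mir-6240 left out, only the groups compared and each library of the groups compared left out (for LPS and TGF-β in EVs also IL-10 EV library 1). The fit was also run on simulated data with random changes in both directions. That simulation set no shift of mir-6236 like that after LPS, so it does not test the dependence on scaling. Replicates all differed by more than sampling noise (chi-square over degrees of freedom from 4.52 up). Sequences come from RefSeq (GRCm38.p6; 926 of 1187 precursors matched), and folding energies from RNAfold 2.7.2. Named precursors are the 9, mir-6236 and mir-6240, the 3 most like each in log2 CPM (0.5 added to each count), those just outside the choice, and called members of number-neighbour, structural RNA and mir-2861 lists. Markers were of microglia, red cell, liver, neuron, muscle and epithelium. Members and lists were chosen with earlier results of these data known.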

Additional observations from a re-analysis of the deposited data

How the results depend on the processing

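After LPS in EVs, 5 of the 9 precursors were called. Library totals alone gave 0, no filter 2, a mean of at least 50 counts 1, and mir-6236 with mir-6240 left out 3, and leaving out single libraries gave 0 to 5. Over all precursors the 13 calls became 4 with library totals (3 higher, 1 lower), 6 with a mean of at least 50 counts, and 1 to 15 with single libraries left out. Against the mean of both cytokines, 6 became 3 with library totals, 3 with no filter and 1 with a mean of at least 50 counts, and 3 to 7 with single libraries left out. All calls there went from 25 (8 higher, 17 lower) to 31 with library totals (24 higher, 7 lower), 11 with a mean of at least 50 counts, and 15 to 29 with single libraries left out. For TGF-β in EVs, 3 calls over all precursors became 0 with library totals, 5 in the Wald test, 1 without mir-6236 and mir-6240, 0 with only the groups compared, and 0 to 4 with single libraries left out. In cells, LPS calls went from 83 (54 higher, 29 lower) to 130 (30 higher, 100 lower) with library totals, and IL-10 calls from 20 to 5 to 21 with single libraries left out. Without mir-6236 and mir-6240 in the totals, the 9 precursors held on average 11.9% of control, 1.70% of LPS, 12.0% of IL-10 and 12.9% of TGF-β EV counts. Libraries ran from 8.88% to 15.3% in controls and from 0.447% to 3.25% after LPS. After IL-10 the range was 4.79% to 15.9%, and after TGF-β 9.76% to 18.7%. Thinned control cells held 0.00221%, which is 1 count in control library 1 from 1 random draw and 0 without that library, and thinned LPS, IL-10 and TGF-β cells 0. The cause of these shifts was not tested, except that stricter filters leave fewer precursors. No called fold change of the 9 precursors changed sign. No paired analysis was possible because the library numbers in the headers carry no pairing. Depth limits the rarer precursors: 7 counts in 3 LPS EV libraries carry the value of mir-3960, and mir-6990 and mir-8117 did not pass the filter and were not called without it.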
